A study of Drosophila melanogaster with 24 samples.

Results

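The regions described here are stretches of chromatin of the Drosophila melanogaster wing that were called open at both pupal stages examined, 24 h and 44 h after puparium formation (APF), but not in the late larval wing disc (L3), and to which the transcription factor E93 was not found bound at 24 h. They were chosen from peak lists. The wild-type peak lists of L3, 24 h and 44 h were merged wherever peaks shared at least 1 bp, which gave 51644 regions. A merged region was kept if it held a 24 h peak and a 44 h peak, no L3 peak and no E93 peak. These unbound pupal regions numbered 3498, or 6.77% of all merged regions (exact 95% binomial interval 6.56% to 6.99%) and 5.83% of the merged length. They were 18.3% of the 19096 regions with a 24 h and a 44 h peak, and 83.9% of the 4169 of those that lacked an L3 peak. The other 671 pupal regions overlapped an E93 peak and are called bound pupal regions below.

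The series holds 24 samples, of which those on chromatin were used and the RNA-seq samples were not analysed here. Chromatin was profiled in dissected wings of female flies by formaldehyde-assisted isolation of regulatory elements (FAIRE-seq). Wild-type wings (w1118/y,w, hs-FLP) were collected at L3, 24 h and 44 h in 3 replicates each, and E93 mutant wings (E93-4/Df(3R)93FX2, an allele over a deficiency) at the same stages in 2 replicates each. E93 binding came from 2 replicates of chromatin immunoprecipitation (ChIP-seq) with an antibody to GFP on 24 h wings of both sexes from flies that carried 1 tagged copy of the gene (yw/+; + ; Mi{MIC}Eip93F/+, E93-GFSTF), and 1 sample of genomic DNA from OregonR adult female virgins served as a control. The E93 mutation is carried by the whole animal, not by the wing alone. Wings are mixtures of cells, so a peak found in fewer cells and a weaker peak in each cell cannot be told apart.

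The wing disc is an epithelium that proliferates through larval life. After puparium formation it everts, its cells leave the cell cycle, and they then form the veins, bristles and cuticle of the adult wing. FAIRE recovers DNA depleted of nucleosomes from chromatin fixed with formaldehyde, and in most tissues such DNA marks promoters, enhancers and other regulatory DNA. E93, encoded by Eip93F, is a transcription factor induced by the steroid hormone ecdysone, and in insects it is known for its part in the passage from the immature to the adult programme. In wild type, a region with no peak in the disc and a peak at both pupal stages is DNA whose accessibility was detected by 24 h and again at 44 h, after the cells had stopped dividing.

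The replicates of a condition were pooled before peaks were called, so each condition has 1 list and no spread between replicates can be given. No test across samples was possible. The intervals below are exact (Clopper-Pearson) for shares and order-statistic intervals for medians, all at 95%, and they cover counting error only. The lists differed in size and depth. Wild type had 39525 L3 peaks, 29731 at 24 h and 28684 at 44 h, whereas the E93 mutant had 28216, 26239 and 22786 at the same stages, and 8477 peaks came from the ChIP-seq. The background level common to each list, a measure of depth, was 10, 18.3 and 15.2 reads in wild type but 5.7, 4.9 and 2.9 reads in the mutant. Within wild type the L3 list thus had the lowest background, although it had the most peaks. A region without an L3 peak is therefore not shown to be closed at L3, and the part of depth in that absence was not tested. The stage of the mutant L3 list is in doubt, because its peaks are named for puparium formation itself while the labels call the samples L3. The wild-type L3 peaks carry names of a top-ranked subset, yet no list is longer. Stages are those of the labels throughout, and every L3 value carries this doubt.

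At both stages the unbound pupal regions were open to a moderate degree. Strength was read from the fold enrichment, which is the height of a peak over the background expected at that place, and from the percentile of a peak within its own list when ranked by −log10 p. The scales of the lists differ, so fold enrichments of different lists, above all of wild type and mutant, cannot be compared directly. At 24 h the fold enrichment of the 3498 regions ran from 1.61 to 9.69, with a median of 3.27 (interval 3.22 to 3.33) and quartiles of 2.66 and 4.29. At 44 h it ran from 1.62 to 12.5, with a median of 3.99 (3.89 to 4.05) and quartiles of 3.00 and 5.58. The regions thus lay below the middle of the 24 h list, at a median percentile of 39.3, and at the middle of the 44 h list, at a median percentile of 49.6. A −log10 q of at least 10 was reached in both lists by 1403 regions (40.1%, interval 38.5% to 41.8%). These values come from the lists that chose the regions, and they are given as a description.

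Both comparison classes stood higher. Bound pupal regions had a median fold enrichment of 5.05 at 24 h and 4.54 at 44 h, at median percentiles of 64.7 and 56.3. The 9725 regions with a peak at L3, 24 h and 44 h and no E93 peak, called constitutive unbound regions, had medians of 4.44 and 5.22, at percentiles of 58.0 and 63.0. A −log10 q of at least 10 in both lists was reached by 61.8% of the bound pupal and 60.4% of the constitutive unbound regions. Regions open at only 1 pupal stage were weaker still than the unbound pupal regions. The 3547 unbound regions with a 24 h peak alone had a median fold enrichment of 2.72, and the 5470 with a 44 h peak alone had 2.93.

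The balance between the stages lay towards 44 h. The percentile at 44 h exceeded that at 24 h in 2262 of the 3498 regions, or 64.7% (interval 63.1% to 66.3%), where all regions with both peaks gave 52.5%. Constitutive unbound regions gave 55.6%, and bound pupal regions gave 42.5%. A lead of 44 h by more than 25 percentile points was found in 748 unbound pupal regions (21.4%, against 13.2% of all regions with both peaks), and such a lead of 24 h in 249 (7.12%, against 12.7%). Among bound pupal regions the order was turned, with 12.5% leading at 44 h and 25.6% leading at 24 h. E93 binding was measured at 24 h only. At the top of the lists, 9 unbound pupal regions (0.257%) were among the strongest 10% at 24 h and 114 (3.26%) at 44 h. Only 4 were in both. Constitutive unbound regions leaned the same way, with 855 (8.79%) at 24 h and 1134 (11.7%) at 44 h. Bound pupal regions had 54 (8.05%) at each stage.

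**Figure D1:**
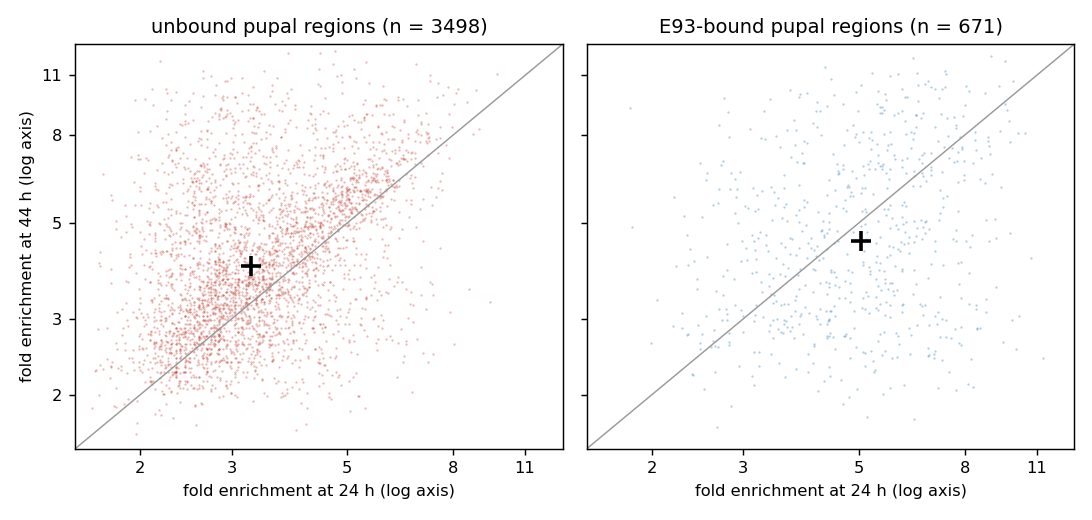
Fold enrichment at 24 h (horizontal, log axis) against 44 h (vertical, log axis) of each unbound pupal region (left, n = 3498) and each bound pupal region (right, n = 671), where a point is a region, the cross marks both medians and the grey line marks equal values. The cross lies above the line for unbound regions (3.27 at 24 h and 3.99 at 44 h) and below it for bound regions (5.05 and 4.54). The scales of the 24 h and 44 h lists differ, so the line does not mark equal strength. Constitutive unbound regions, not drawn, had medians of 4.44 and 5.22.

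Strength at one stage was only partly related to strength at the other. Across the 3498 regions the fold enrichments at 24 h and 44 h had, on the log2 scale, a Pearson r of 0.40. The same coefficient was 0.22 over the 671 bound pupal and 0.66 over the 9725 constitutive unbound regions. The 95th percentile of fold enrichment at 24 h was 5.97 in unbound pupal, 8.58 in bound pupal and 8.70 in constitutive unbound regions. The part of this range in the coefficients was not tested. The points share the control library and, within a stage, the FAIRE library, so these coefficients are a description. The rule asks for peaks that meet in a merged region, and the peaks are short, which bounds the distance between summits. The 2 summits lay a median of 18 bp apart and within 100 bp of each other in 3103 regions (88.7%), and more than 200 bp apart in 162 (4.63%). Constitutive unbound regions gave 85.3% within 100 bp and 7.90% over 200 bp apart, and bound pupal regions 73.9% and 13.4%. More than 1 peak of a list was held by 84 unbound pupal regions (2.40%), against 12.6% of constitutive unbound and 5.96% of bound pupal regions.

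The regions that were strong at both stages give a view of the range. Ranked by the worse of its 24 h and 44 h ranks, the first unbound pupal region lies on 3R from 19643150 to 19643891 (742 bp, dm3 coordinates here and below) and had a fold enrichment of 9.69 at 24 h and 11.1 at 44 h, at rank 895 in each list. In the E93 mutant it had no L3 peak, and peaks of 14.2-fold at 24 h (rank 2827 of 26239) and 16.8-fold at 44 h (rank 2783 of 22786). This region thus stood lower in the mutant lists than in those of wild type, despite the higher fold enrichments. It was followed by a region on X from 18410587 to 18410907, with 8.01-fold and 9.43-fold enrichment in wild type and 4.87-fold and 6.37-fold in the mutant at 24 h and 44 h. Both were therefore called at the same stages in the mutant as in wild type. The next 3 were split. The region on 3R from 438303 to 438695, with 8.85-fold and 10.2-fold enrichment in wild type, had a mutant peak at 44 h only (6.14-fold). That on 2L from 10364293 to 10364549, with 8.51-fold and 9.53-fold, had mutant peaks at L3 (4.57-fold) and 44 h (4.76-fold) and none at 24 h. That on X from 16601283 to 16601927, with 8.18-fold and 10.2-fold, had mutant peaks at 24 h (6.58-fold) and 44 h (10.9-fold).

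Of the regions that differed most between the pupal stages, the 3 that led at 44 h were found in the mutant at 44 h alone, and the 3 that led at 24 h were found there at 24 h or at both stages. The largest lead of 44 h was on 2L from 18342108 to 18342914, where the fold enrichment was 2.18 at 24 h (rank 28515) and 11.8 at 44 h (rank 272). The next were on 2R from 7384290 to 7384757 (2.11 and 10.2) and on 3R from 17072431 to 17072811 (2.12 and 9.39). Each of these 3 had a mutant peak at 44 h, of 9.94-fold, 7.90-fold and 11.1-fold, and none at L3 or 24 h. The largest leads of 24 h were all on 3R. The first, from 17796315 to 17796726, had 6.67-fold enrichment at 24 h and 2.03-fold at 44 h in wild type and a mutant peak at 24 h only (5.25-fold). The other two were found in the mutant at both pupal stages. The region from 9878140 to 9878538 had 7.30-fold and 2.49-fold enrichment in wild type and 4.65-fold and 4.03-fold in the mutant, and the region from 27358851 to 27359546 had 7.15-fold and 2.38-fold in wild type and 3.58-fold and 5.12-fold in the mutant.

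Unbound pupal regions were short. Their lengths ran from 127 to 1648 bp, with a median of 255 bp (interval 250 to 261) and quartiles of 193 and 376 bp. The median was 462 bp for bound pupal and 433 bp for constitutive unbound regions, and 180 and 187 bp for unbound regions open only at 24 h or only at 44 h. The 44 h peaks were the longer, with a median of 219 bp against 192 bp at 24 h. The longest member, on 3R from 11254765 to 11256412, is an example, since its fold enrichment was 2.35 at 24 h and 8.15 at 44 h. The second longest, on 3R from 2076526 to 2078168 (1643 bp), held 2 peaks of the 24 h list within 1 peak of the 44 h list, with 4.39-fold and 10.5-fold enrichment. The third, on 2R from 3075033 to 3076614 (1582 bp), had 2.34-fold and 10.0-fold enrichment. In the mutant the first 2 had peaks at both pupal stages, and the third had one at 44 h only.

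L3 peaks were dense along the genome, and many of these regions lay near one. The nearest L3 peak was a median of 657 bp away, within 200 bp for 599 regions (17.1%) and within 1000 bp for 2189 (62.6%), and it was more than 5000 bp away for 182 (5.20%). Up to the furthest peak of each arm, 40.5% of the bases outside L3 peaks lie within 1000 bp of one. Bound pupal regions gave a median of 574 bp and 69.0% within 1000 bp, unbound regions of 24 h alone 826 bp and 55.9%, and those of 44 h alone 866.5 bp and 54.5%. The nearest E93 peak was further, at a median of 4888 bp, which was close to the 4868 bp of the constitutive unbound regions. It was within 200 bp for 90 unbound pupal regions (2.57%), within 1000 bp for 671 (19.2%) and more than 10 kb away for 1137 (32.5%). The number 671 is that of the bound pupal regions by coincidence.

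Few regions sat within 10 bp of the edge that the rule draws at L3 peaks. The smallest gaps to an L3 peak were 2 bp on 2L from 2963368 to 2963752, 4 bp on 2R from 19769830 to 19770049 and 5 bp on 2R from 13553431 to 13553575, and 6 regions in all had a gap of at most 10 bp. Just outside, the unbound regions with a 24 h and a 44 h peak and the smallest L3 overlap were on 2R from 2864146 to 2864864 (7 bp), on 3L from 8171323 to 8171658 (14 bp) and on 2L from 16743600 to 16743951 (14 bp). The fold enrichments at 24 h were 3.34, 4.44 and 2.46 for the first 3 and 2.84, 3.47 and 3.68 for the last 3. The values on the inner and the outer side of the edge overlap.

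The unbound pupal regions were spread over every chromosome arm. They numbered 538 on 2L, 629 on 2R, 738 on 3L, 890 on 3R, 683 on X and 20 on the small chromosome 4. As a share of each arm's regions with a 24 h and a 44 h peak, this was 16.6% on 2L (interval 15.3% to 17.9%), 17.1% on 2R, 18.5% on 3L, 19.1% on 3R (17.9% to 20.2%) and 19.8% on X (18.4% to 21.1%). On chromosome 4 it was 35.1% of 57 regions (22.9% to 48.9%), and the interval lies above those of the large arms. Up to the furthest peak of an arm, the density was 23.4 regions per Mb on 2L, between 29.8 and 31.9 per Mb on the other large arms and 15.2 per Mb on chromosome 4.

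**Figure D2:**
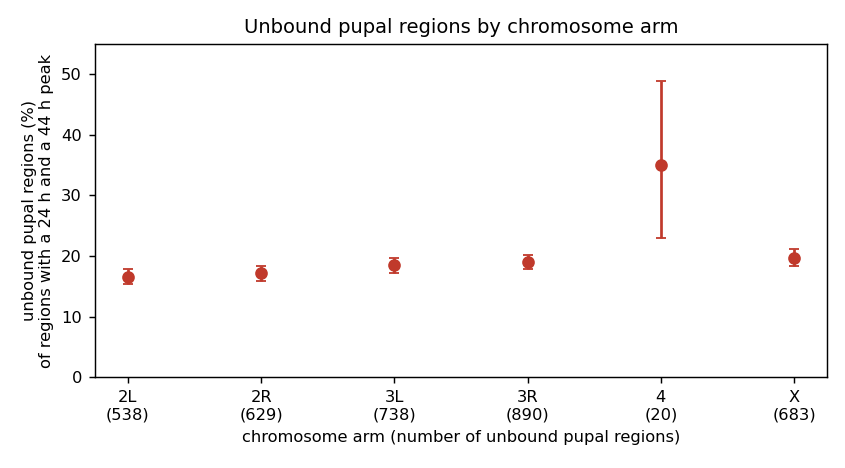
Unbound pupal regions as a percent of all regions with a 24 h and a 44 h peak on each chromosome arm, with the number of unbound pupal regions in parentheses and bars for the exact 95% binomial interval. The large arms lie between 16.6% and 19.8%, and chromosome 4 lies at 35.1% with a wide interval from 20 regions.

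Along the arms they were widespread but unevenly placed. Of 1199 windows of 100 kb with any merged region, 1021 (85.2%) held at least 1 unbound pupal region, and neighbours lay a median of 17099.5 bp apart. The 260 windows with 5 or more held 1688 of the regions, and 278 gaps between neighbours were under 1000 bp. Whether this differs from the spacing of all merged regions was not tested. The fullest window, on 3R from 5700001 to 5800000, held 17 of them among 85 merged regions, of which 6 had a peak in the mutant 24 h list and 13 in the mutant 44 h list. The window on 3R from 500001 to 600000 held 13 of 59, with 3 in each mutant list. The window on 3L from 18000001 to 18100000 held 12 of 63, with 5 at 24 h and 4 at 44 h, and that on X from 17100001 to 17200000 held as many, with 3 and 6. The fullest windows therefore differed in how many of their regions were found in the mutant.

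The E93 mutant lists were not used to choose the regions. More unbound pupal regions lacked a mutant peak than had one. At 24 h, 872 of the 3498 (24.9%, interval 23.5% to 26.4%) overlapped a peak of the mutant list, where 74.9% of all regions with a 24 h and a 44 h peak and 43.5% of all merged regions did. At 44 h, 1287 (36.8%, 35.2% to 38.4%) did, against 76.5% and 38.3%. A peak in at least 1 of these lists was found for 1572 regions (44.9%, against 83.7% of all regions with both wild-type peaks), and a peak in both for 587 (16.8%, against 67.7%). No mutant peak at any of the 3 stages was found for 1820 regions (52.0%, interval 50.4% to 53.7%), where 13.1% of all regions with both wild-type peaks had none. Members are weaker and shorter than those regions, and the mutant lists are shallower than the wild-type lists, so the shares are set against strength and length below.

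The shares stood well under those of both comparison classes. Of the bound pupal regions, 54.7% (50.8% to 58.5%) had a mutant peak at 24 h and 67.4% (63.7% to 70.9%) at 44 h, and 24.6% had none at any stage. Of the constitutive unbound regions, 82.2% and 80.9% had one, and 5.05% had none. That class was chosen for a peak in the L3 list as well and so had passed 1 more call in wild type. Unbound regions open at a single pupal stage, which were weaker and shorter, gave 17.4% in the mutant 24 h list for those of 24 h alone and 18.9% in the mutant 44 h list for those of 44 h alone. At matched strength the gap at 24 h depended on the range. Over bins of strength and peak length that held both classes, the unbound pupal share was the higher in 13 of 18 and the lower in 3. Intervals were apart in 1 of these bins. At 44 h, against regions of 44 h alone, it was the higher in 16 of 18 and the lower in 1, with intervals apart in 7. Unbound pupal regions had passed 1 more call in wild type than regions of a single stage. In the lowest 25% of the 24 h list, the regions of 24 h alone gave 13.6% (12.1% to 15.3%) and the unbound pupal regions 18.1% (15.8% to 20.7%). Between percentiles 25 and 50 the regions of 24 h alone gave 18.1% (15.9% to 20.3%) and the unbound pupal regions 19.9% (17.8% to 22.2%). At 44 h the same range gave 15.9% (14.3% to 17.6%) and 26.2% (23.6% to 28.9%).

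Where a mutant peak was present, it was more often at 44 h. A mutant 44 h peak without a 24 h peak was found for 700 unbound pupal regions (20.0%, against 8.79% of all regions with both wild-type peaks), and the reverse for 285 (8.15%, against 7.25%). The mutant 44 h list is the shorter and the shallower of the pair. Bound pupal regions gave 19.8% and 7.15%, which is nearly the same, so the classes parted in the share with both peaks, 16.8% against 47.5% (43.7% to 51.4%). With mutant L3 peaks counted as well, 632 of the 3498 unbound pupal regions (18.1%) had a mutant peak at 44 h alone, 231 (6.60%) at 24 h alone and 442 (12.6%) at 24 h and 44 h but not L3.

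**Figure D3:**
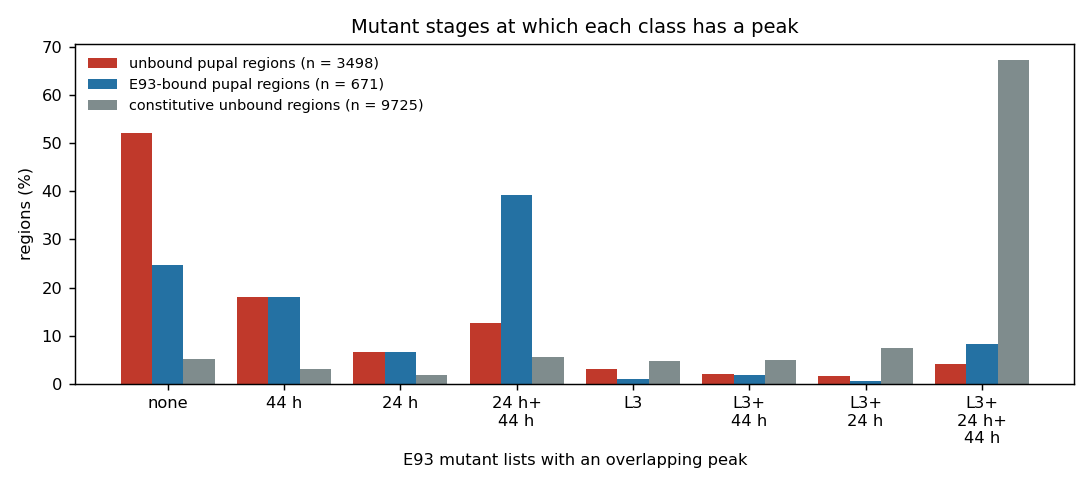
Percent of the regions of each class (vertical) by the set of E93 mutant lists in which they overlap a peak (horizontal), for unbound pupal, bound pupal and constitutive unbound regions. The tallest bar is no mutant list for unbound pupal regions (52.0%), 24 h with 44 h for bound pupal regions (39.3%) and all stages for constitutive unbound regions (67.3%).

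A peak in the mutant at L3, where wild type had none, was uncommon. It was found for 373 unbound pupal regions (10.7%, interval 9.66% to 11.7%), against 71.0% of all regions with both pupal peaks and 47.1% of all merged regions, most of which have a wild-type L3 peak. Bound pupal regions gave 11.5% (9.16% to 14.1%), and the intervals overlap. The weaker unbound regions of a single pupal stage, which also lack a wild-type L3 peak, gave less. The share was 7.67% (6.81% to 8.59%) for 24 h alone and 5.25% (4.67% to 5.87%) for 44 h alone. Of the 373 regions, 106 (3.03% of all members, against 3.21%) had a mutant peak at L3 only and 145 (4.15%, against 60.0%) at every stage. The 3 strongest of the latter were on 3L from 18025874 to 18026358, on 2R from 9826138 to 9826694 and on 2R from 16555477 to 16555752. Their mutant fold enrichments at L3, 24 h and 44 h were 5.56, 6.29 and 10.7 for the first, 2.77, 5.82 and 15.4 for the second and 3.70, 4.59 and 3.67 for the third. In wild type the same regions had 7.43-fold, 8.98-fold and 8.74-fold enrichment at 24 h, which is not on the same scale as the mutant values.

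The share of unbound pupal regions found in the mutant was higher where the wild-type peaks were stronger. When all regions with a 24 h and a 44 h peak were put in 4 equal groups by the worse of their ranks, 83 unbound pupal regions fell in the strongest group, 722 in the second, 1264 in the third and 1429 in the weakest. From the strongest to the weakest group, the share with a mutant 24 h peak was 60.2% (48.9% to 70.8%), 34.9%, 22.5% and 20.0% (18.0% to 22.2%). The share with a mutant 44 h peak was 62.7% (51.3% to 73.0%), 40.3%, 35.2% and 34.9%. Strength did not bring the classes together over most of its range. In the strongest group 98.3% of the constitutive unbound regions had a mutant 24 h peak, and in the weakest 66.2% did. Bound pupal regions lay between, at 82.5% and 50%.

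When each stage was taken alone, the shares of unbound pupal regions and both comparison classes all came close together only at the top of the 44 h list. Of the 114 unbound pupal regions whose 44 h peak was in the strongest 10% of its list, 112 (98.2%, interval 93.8% to 99.8%) had a mutant 44 h peak, against 100% of 54 bound pupal and 99.6% of 1134 constitutive unbound regions. Just below, between percentiles 75 and 90, the shares were 69.9% (64.6% to 74.7%), 89.1% and 96.6%. Between percentiles 50 and 75 they were 38.3%, 68.1% and 84.0%, and in the lowest 25% of the list 24.5%, 56.6% and 53.7%. At 24 h the share of unbound pupal regions was 77.8% in the strongest 10%, from 7 of 9 regions with an interval of 40.0% to 97.2%, 59.3% between percentiles 75 and 90, 32.8% between 50 and 75, and 18.1% in the lowest 25%. Bound pupal regions gave 85.2%, 71.9%, 49.1% and 34.0% in the same ranges, and constitutive unbound regions gave 99.9% (99.4% to 100%), 97.4%, 86.0% and 59.6%. The interval of the 9 strongest unbound pupal regions at 24 h lies below that of the constitutive unbound regions, but it holds the bound pupal share of 85.2%. Of the 114 regions strongest at 44 h, 52 (45.6%) also had a mutant 24 h peak.

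**Figure D4:**
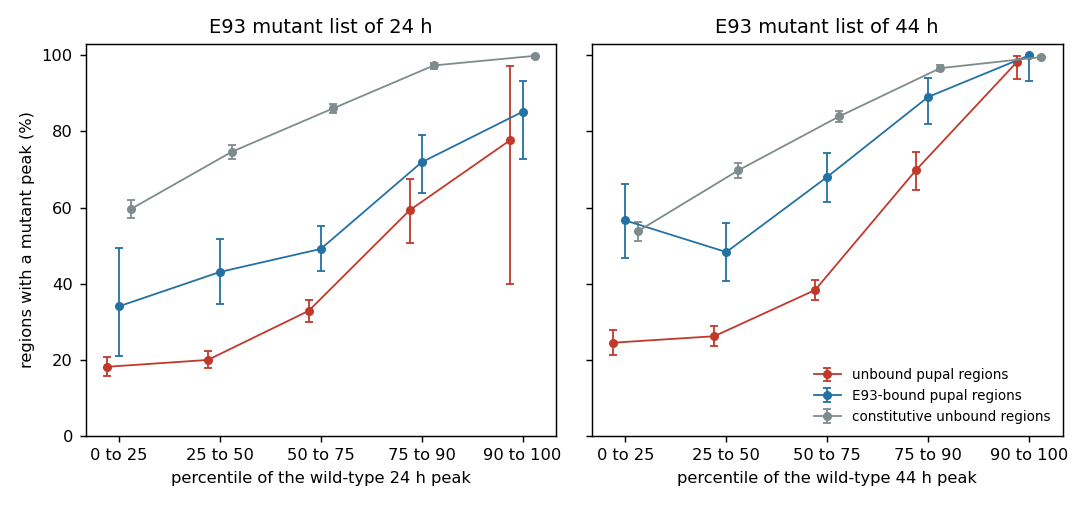
Percent of regions with a peak in the E93 mutant 24 h list (left) and 44 h list (right) by the percentile of the wild-type peak of the same stage, for unbound pupal, bound pupal and constitutive unbound regions, with bars for the exact 95% binomial interval. Unbound pupal regions lie lowest up to percentile 90, and above it at 44 h they reach 98.2%.

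Length moved with the mutant share as well. The 405 unbound pupal regions longer than 500 bp had a mutant peak at 24 h in 41.7% (36.9% to 46.7%) and at 44 h in 75.8% (71.3% to 79.9%) of cases, and the 1014 of at most 200 bp in 13.5% and 11.8% (9.91% to 14.0%). Strength and length were then held together, with the wild-type peak of the same stage between percentiles 50 and 75. At 44 h, the share of unbound pupal regions with a mutant peak was 12.0% for peaks of at most 200 bp, 38.7% for over 200 to 300 bp, 54.1% for over 300 to 500 bp and 73.5% for longer peaks. Constitutive unbound regions gave 66.8%, 81.6%, 87.1% and 95.3% in the same bins, each with an interval above that of the unbound pupal regions.

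Set against bound pupal regions in this way, most intervals overlapped at 24 h and some were apart at 44 h. Between percentiles 50 and 75 and for peaks of over 200 to 300 bp, 40.7% of the unbound (35.2% to 46.3%) and 42.9% of the bound pupal regions (31.1% to 55.3%) had a mutant 24 h peak. For over 300 to 500 bp the shares were 45.7% (39.1% to 52.5%) and 51.6% (42.5% to 60.7%), and for longer peaks 41.8% and 53.2%, again with intervals that overlap. At 44 h the shares for over 300 to 500 bp were 54.1% (48.5% to 59.5%) and 76.5% (67.0% to 84.3%), which do not overlap, and those of the other lengths overlap. Some bins of lower strength had intervals apart. For peaks of at most 200 bp, the unbound and bound pupal shares were 15.0% (12.6% to 17.6%) and 35% (20.6% to 51.7%) at 24 h between percentiles 25 and 50, and 22.2% (18.5% to 26.4%) and 56.1% (43.3% to 68.3%) at 44 h in the lowest 25%. Over all bins of strength and length that held both classes, the unbound share was the lower in 11 of 17 at 24 h, with intervals apart in 1, and in 17 of 18 at 44 h, with intervals apart in 4. With all strengths together, the 24 h intervals were apart for 3 of the 4 lengths. Bins with few regions have wide intervals, and overlap does not show that the classes are alike.

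**Figure D5:**
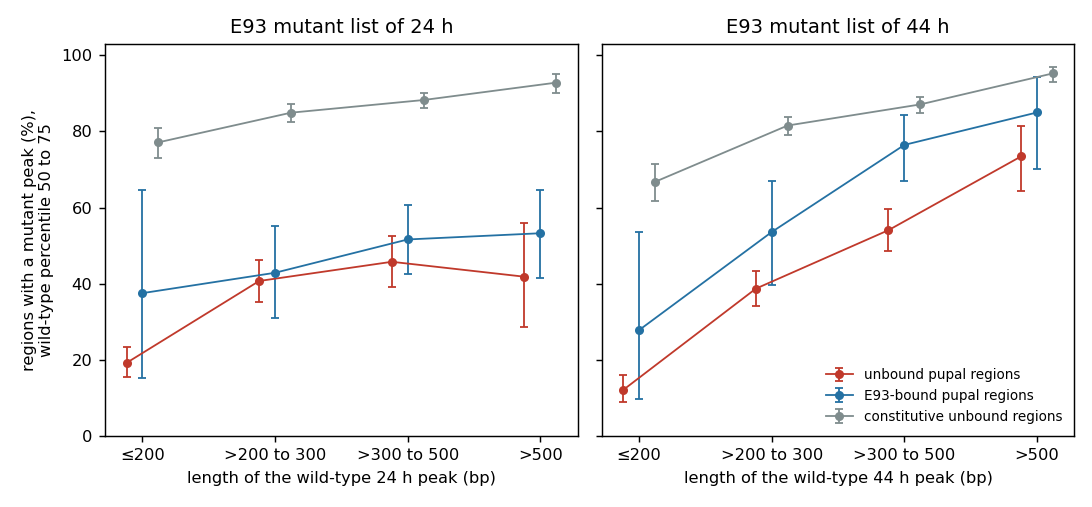
Percent of regions with a peak in the E93 mutant 24 h list (left) and 44 h list (right) by the length of the wild-type peak of the same stage, for peaks between percentiles 50 and 75 of their list, with bars for the exact 95% binomial interval. Unbound pupal regions at 44 h go from 12.0% to 73.5% with length, and constitutive unbound regions stay above them in every bin.

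The stage at which a region was stronger in wild type also moved with the mutant share. The 2262 regions with the higher percentile at 44 h had a mutant 44 h peak in 40.4% (38.4% to 42.5%) and a mutant 24 h peak in 22.5% (20.8% to 24.3%) of cases. The other 1236 regions had nearly equal shares, with 30.2% at 44 h and 29.4% at 24 h (26.8% to 32.0%). Nearness to E93 binding went with a small difference, since the 671 regions with an E93 peak within 1000 bp gave 29.1% at 24 h (25.6% to 32.7%) and 42.5% at 44 h (38.7% to 46.3%), and those further away gave 23.9% (22.4% to 25.6%) and 35.4% (33.7% to 37.2%). An L3 peak within 1000 bp went with nearly the same share at 24 h, 545 of 2189 regions against 327 of 1309 beyond, and with a somewhat lower one at 44 h, 766 of 2189 against 521 of 1309. Across the large arms the share ran from 24.0% to 26.5% at 24 h and from 35.5% to 38.2% at 44 h, and on chromosome 4 it was 3 of 20 regions at each stage.

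Mutant peaks at these regions were of modest rank. A mutant peak was matched by overlap with the region, which bounds the distance between summits. For the 872 regions found at 24 h, the mutant peak had a median fold enrichment of 3.62 (quartiles 3.12 and 4.28) at a median percentile of 33.5 in its list, and its summit lay a median of 32 bp from the wild-type summit. For the 1287 found at 44 h, these values were 4.68 (3.84 and 6.71), a percentile of 38.5 and 30 bp. Regions without a mutant peak were weaker in wild type, with a median percentile of 36.9 against 49.4 for those with one at 24 h, and of 44.3 against 62.1 at 44 h. Of the 2626 regions with no mutant 24 h peak, 319 (12.1%) had one within 200 bp, and of the 2211 with none at 44 h, 261 (11.8%) had. Bound pupal regions without a mutant peak gave 16.4% at 24 h and 17.4% at 44 h, and constitutive unbound regions 11.1% and 9.96%. The part of shifts in position in the absences was not tested.

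Some strong regions had no mutant peak at all. The 3 strongest were on 3R from 11714761 to 11715034 (274 bp), with 6.40-fold enrichment at 24 h and 7.04-fold at 44 h, on X from 7604851 to 7605104 (254 bp), with 7.41-fold and 7.82-fold, and on 2R from 10505544 to 10505754 (211 bp), with 7.10-fold and 8.11-fold. All were in the strongest of the 4 groups, between percentiles 79.9 and 83.6 of the wild-type lists. The nearest mutant peak of any stage was at least 3068 bp away from the first, at least 537 bp from the second and at least 301 bp from the third. With a common background of 4.9 reads at 24 h and 2.9 reads at 44 h in the mutant, against 18.3 and 15.2 reads in wild type, a missing mutant peak is not shown to be closed chromatin, and the part of depth in these absences was not tested.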

How the data were processed

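FAIRE-seq was performed on wild-type and E93 mutant wings, and E93-GFSTF ChIP-seq on 24 h wings. The submitters' processing notes name Bowtie2 2.2.8, SAMtools 1.3.1, Picard 2.2.4, bedtools 2.25.0, MACS2 and the dm3 build; peak calling settings are not given in the sources used here. The authors pooled the replicates and deposited 1 peak list per condition, 7 lists in all. For every peak the authors gave the pileup, a coverage signal read at the summit, the fold enrichment, a ratio of that pileup to what the background predicts, and a −log10 p with its −log10 q. The score of the deposited control reads was not used. Those reads extend past the furthest peaks and appear to be numbered on another release, so the background behind a fold enrichment off arm 2L may come from another place; the background used was the common level for 26.6% of the regions at each stage, and arm 2L alone is given as an alternative.

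Peaks that shared at least 1 bp were merged or matched, with overlap functions tested on simulated lists. The common background, in unscaled reads, was computed back from the pileup and the fold enrichment (pseudocount of 1). Its values give the depth behind each list. Coordinates are 1-based. Python 3.11.15, numpy 2.4.6, pandas 2.3.3, scipy 1.17.1 and matplotlib 3.10.9 were used.

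The members, classes and lists were chosen with earlier results of these data known. Regions were named by a rule: the 5 with the best worse rank, the 3 with the largest percentile lead of each stage, the 3 strongest in no and the 3 strongest in all mutant lists, the 3 longest, the 3 nearest to an L3 peak, the 3 non-members with the smallest L3 overlap, and the 3 fullest windows of 100 kb, of which the last is tied with the window on X. Bins by the percentile and length of the peak of a single stage, and ranking by pileup, were chosen after seeing the data. Other alternatives are given in the closing section. Regions were not assigned to genes and no sequence was printed, because the gene table used is on another release and no genome of the peaks' build was used.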

Additional observations from a re-analysis of the deposited data

How the results depend on the processing

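With a −log10 q of at least 10 at both stages the rule gave 1404 regions, with mutant shares of 31.8% at 24 h, 38.5% at 44 h and 13.4% at L3, median fold enrichments of 4.37 and 5.24 and a median length of 244 bp. Equal wild-type list sizes, the 28684 strongest peaks of each, gave 4136 regions, shares of 29.8%, 40.6% and 16.5% and a length of 267 bp. Every mutant list is shorter than this, so wild-type and mutant lists were not made equal in size. Requiring the 24 h and 44 h peaks to share at least 50% of their lengths gave 2823 regions, a 44 h share of 33.0%, a 24 h fold enrichment of 3.38 and a length of 227 bp. With no L3 or E93 peak within 200 bp there were 2854 regions, a 44 h share of 38.8%, an L3 share of 9.43% and a length of 264.5 bp. Arm 2L gave 538 regions, fold enrichments of 3.22 and 3.86 and a length of 241 bp. In the strongest of 4 groups the shares at 24 h, 44 h and L3 were 60.2%, 62.7% and 27.7%, or 62.1%, 72.6% and 27.4% when ranked by pileup, and in the strongest 10% of the list of that stage they were 77.8% at 24 h and 98.2% at 44 h. The other values, 17 of 46, moved by less than their counting interval or, for the number of regions, by less than 1.5 times. Under each of these settings the 44 h share exceeded the 24 h share, and the cause of the moves was not tested. Leaving out a replicate was not possible, since replicates were pooled in 1 list. No paired analysis was possible because the lists carry no replicate columns. Depth limits what a missing peak shows, above all in the mutant at 44 h.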
